A study of Mus musculus with 6 samples.

Results

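Costimulatory and checkpoint molecules are the surface proteins through which a macrophage or dendritic cell strengthens or restrains the T cell it presents antigen to. Transcripts of 8 such genes (Cd40, Cd80, Cd86, Cd274, Pdcd1lg2, Icosl, Slamf1 and Havcr2) were followed here. They were picked by gene name, with no measured value in the rule although earlier results of these data were known, and are 8 of the 22821 genes kept from tables of 23699 rows. All 8 were listed in every library.

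T cell activation needs a signal through the T cell receptor and a second, costimulatory signal. CD80 and CD86, the B7 ligands, give it through CD28 and are also bound by the inhibitory receptor CTLA-4, and ICOS ligand (Icosl) acts through ICOS. CD40, a TNF receptor family member, receives CD40 ligand from helper T cells and licenses the presenting cell. PD-L1 (Cd274) and PD-L2 (Pdcd1lg2) bind PD-1 and restrain the T cell, SLAM (Slamf1) is a receptor that binds itself on a neighbouring cell and is also a microbial sensor of macrophages, and TIM-3 (Havcr2) is an inhibitory receptor that myeloid cells carry too. Bacterial lipopolysaccharide (LPS), sensed by TLR4, is a classical inducer of several of these ligands, and cells that meet LPS a second time answer with a changed set of genes, a state called tolerance.

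The RNA came from peritoneal macrophages, the phagocytes of the abdominal cavity, of C57Bl/6 animals, either wild type (WT) or miR-221/222 -/Y, the latter lacking the X-linked microRNA genes Mir221 and Mir222 (KO). Naive cells received no LPS, LPS cells received 1000 ng/ml for 4 h, and tolerized cells received 10 ng/ml for 15 h, were washed, rested for 2 h and then received 1000 ng/ml for 4 h. Tolerized therefore means restimulated after a first dose. Each of the 6 groups held 1 library, and the labels give no age and do not say how many mice a library came from. Levels are FPKM, fragments counted per kilobase of transcript and scaled to the library's mapped fragments, each with the interval the authors deposited.

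The strand of each microRNA that pairs with target transcripts is shown because its absence defines the KO cells. Capitals mark the seed (bases 2 to 8), which both microRNAs share (RefSeq, GRCm38.p6).
mmu-miR-221-3p: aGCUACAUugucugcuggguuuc
mmu-miR-222-3p: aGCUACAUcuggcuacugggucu

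The complement of that seed, ATGTAGC, occurred in 0 of the 8 genes' 3′ UTRs (the longest annotated for each gene in GENCODE M21, 669 to 2683 bases), against 9.42% of 20979 genes with a 3′ UTR and 11% of the 9012 of them that were tested here. The search covered these letters in these UTRs only. Mir221 and Mir222 were listed at 0 FPKM in all 6 libraries, WT included, so the deleted genes gave no check of the genotype labels.

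Promoter sequence, from 250 bases before to 50 bases after the start site, was matched for 6 of the 8 genes (RefSeq, GRCm38.p6), all but Cd40 and Cd86. Both PD-1 ligands are shown because they lie side by side and their transcripts were highest in different conditions, and Cd80 because it holds a motif match close to its start. Capitals mark motif matches.
Cd274 promoter, chr19:29367188-29367487: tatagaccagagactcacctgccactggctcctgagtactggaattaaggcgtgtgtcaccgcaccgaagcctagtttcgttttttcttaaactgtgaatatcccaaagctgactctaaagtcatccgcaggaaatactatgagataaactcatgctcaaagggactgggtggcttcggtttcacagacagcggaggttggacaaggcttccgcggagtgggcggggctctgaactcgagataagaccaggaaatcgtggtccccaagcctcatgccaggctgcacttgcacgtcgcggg
Pdcd1lg2 promoter, chr19:29410669-29410968: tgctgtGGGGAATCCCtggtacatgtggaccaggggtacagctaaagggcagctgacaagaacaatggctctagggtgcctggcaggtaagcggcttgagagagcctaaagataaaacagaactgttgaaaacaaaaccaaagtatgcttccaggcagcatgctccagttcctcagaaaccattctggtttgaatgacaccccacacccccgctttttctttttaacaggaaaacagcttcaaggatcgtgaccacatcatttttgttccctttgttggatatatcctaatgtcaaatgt
Cd80 promoter, chr16:38458683-38458982: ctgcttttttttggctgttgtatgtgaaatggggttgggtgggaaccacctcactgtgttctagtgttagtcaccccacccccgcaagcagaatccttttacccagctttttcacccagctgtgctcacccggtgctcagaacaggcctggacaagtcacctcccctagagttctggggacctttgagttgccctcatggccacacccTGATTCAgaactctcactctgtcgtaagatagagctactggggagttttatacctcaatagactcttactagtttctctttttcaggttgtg

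4 kinds of motif were searched on both strands, none overlapping another in these windows: the kappaB motif by its name, the AP-1 motif TGANTCA, the core of the interferon-stimulated response element by its name, and the GAS motif TTCNNNGAA. They matched 8.46%, 7.81%, 3.44% and 8.3% of 32851 promoters of the same length. Pdcd1lg2 held a kappaB match (GGGGAATCCC) at bases -244 to -235 from the start, and Icosl held a kappaB match on the opposite strand. Cd80 and Havcr2 each held an AP-1 match, TGATTCA, which in Cd80 lay at bases -42 to -36. None of these letters occurred in the Cd274 and Slamf1 windows, which says nothing about other parts of those promoters.

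**Figure D1:**
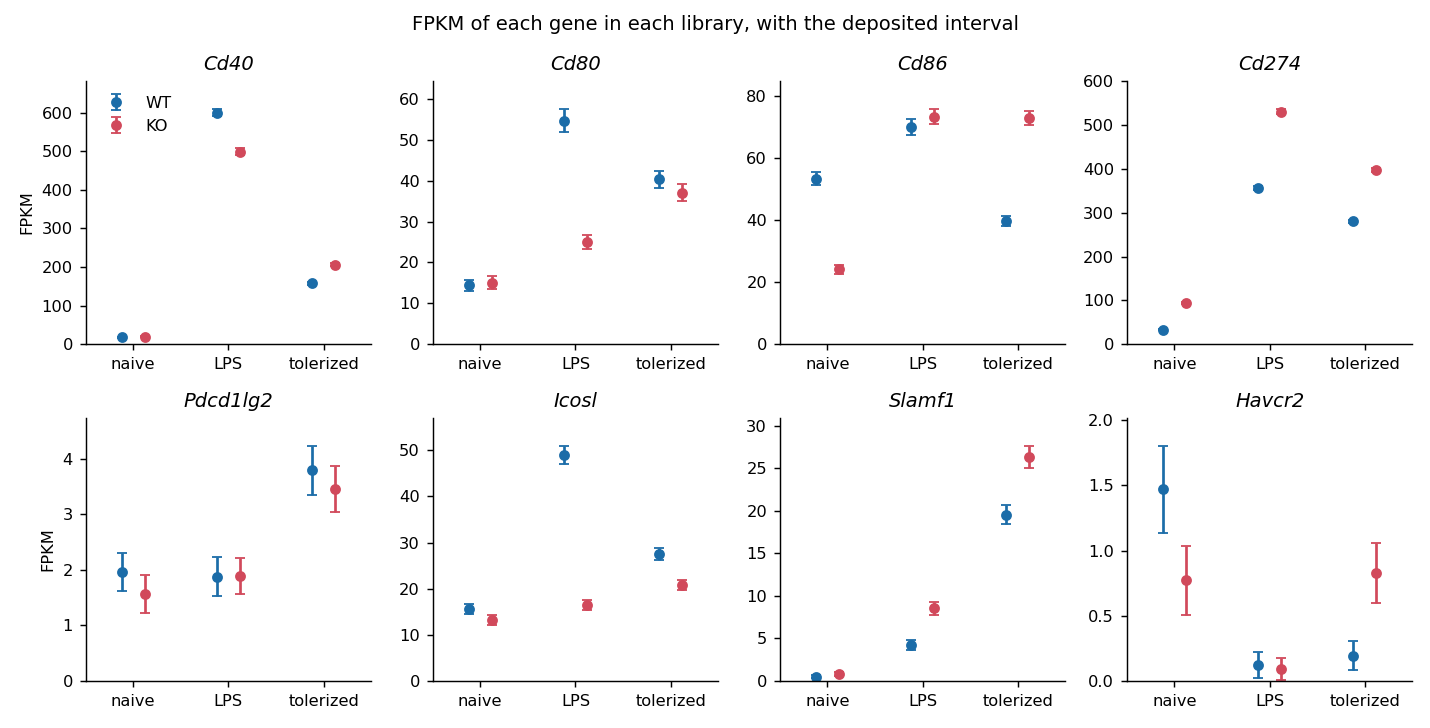
FPKM (y axis, a separate linear scale from 0 for each gene) of the 8 genes in naive, LPS and tolerized cells (x axis); blue points are the WT library and red points the KO library, and bars are the deposited intervals, which cover counting error only. Cd40 peaked in both LPS libraries, at 599 and 499 FPKM, while Slamf1 peaked in both tolerized libraries, at 19.5 and 26.3 FPKM.

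Conditions were compared with limma on log2(FPKM + 1), with genotype as a term, so the 2 libraries of a condition (WT and KO) stand as its replicates and an effect of LPS in only 1 genotype counts as spread. Of the 8 genes, 7 reached the minimum for testing (2 FPKM in at least 2 libraries). Havcr2 did not, Pdcd1lg2 passed only through the tolerized libraries and Slamf1 only through libraries given LPS, so counts among the 7 describe them and are no test of the group. The median gene moved by -0.75 (log2) with LPS against naive, by 0.51 in tolerized against LPS and by -0.21 in tolerized against naive cells. Each difference can therefore also be read relative to that median, and as an alternative each library was divided by its median ratio to the geometric mean of all 6 libraries. All 3 condition comparisons share libraries and are not independent of each other.

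LPS raised 4 of the 7 tested genes, Cd40, Cd274, Slamf1 and Cd80, and lowered 0 of them (limma, adjusted p under 0.05). Among all 10164 tested genes, 8.66% rose and 53.9% fell. The median of the 7 was 1.28 on the log2 scale. After rescaling, all 7 passed the threshold as higher, against 22.4% of all genes. The plot of limma estimates gives the 7 genes in each comparison.

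**Figure D2:**
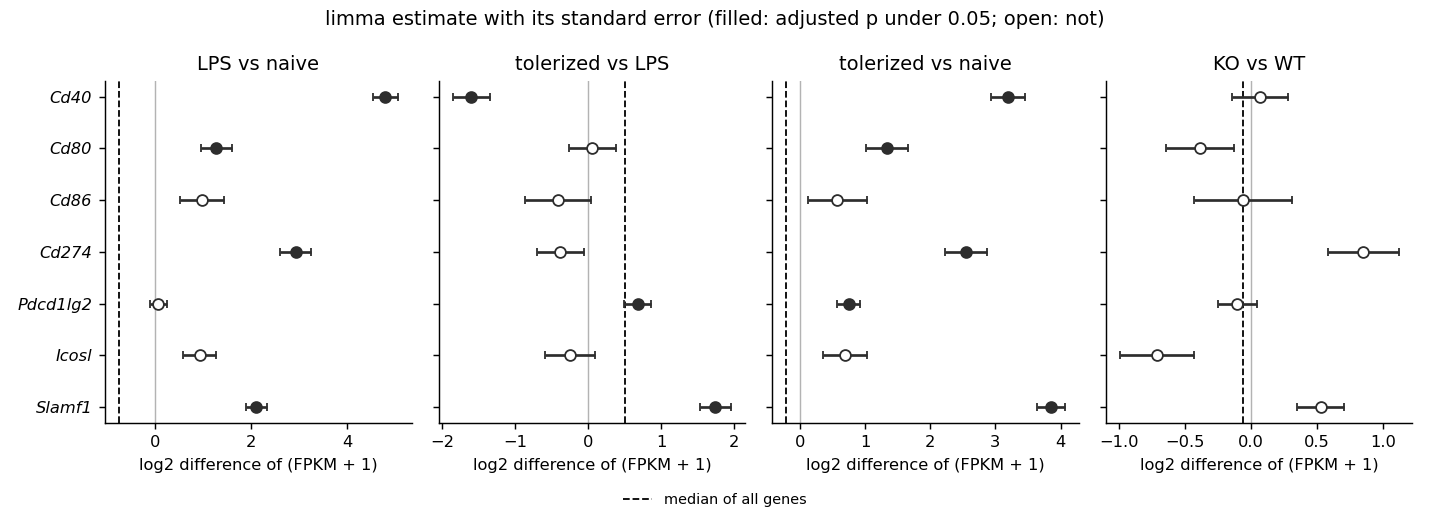
limma estimates (x axis, log2 difference of FPKM + 1) with standard errors for the 7 tested genes (y axis) in 4 comparisons; filled points passed an adjusted p of 0.05, open points did not, and the dashed line is the median of all tested genes. Cd40 and Slamf1 lie on opposite sides of 0 in tolerized against LPS cells, at -1.59 and 1.74, and the Cd80 estimate there, 0.06, turns to -0.53 when libraries are rescaled.

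Cd40, the receptor for helper T cell CD40 ligand, stood in WT at 18.3 FPKM before LPS, 599 after LPS and 158 when tolerized, and in KO at 19.5, 499 and 206 FPKM in the same order. The libraries fell into 3 levels, lowest naive, then tolerized, then LPS, and the levels of WT and KO cells did not overlap between conditions. The deposited intervals of the naive libraries overlapped each other, and all other neighbours in the order were separated by more than their intervals. Cd40 rose by 4.79 ± 0.26 (log2, SE) with LPS (limma, adjusted p = 0.00042), which is 5.54 above the median gene. In tolerized cells it fell by 1.59 ± 0.26 relative to LPS (limma, adjusted p = 0.0101; -2.20 after rescaling) and stood 3.19 ± 0.26 above naive (limma, adjusted p = 0.00265). Cd40 was the only one of the 7 that fell in tolerized against LPS cells, where 4.27% of all tested genes fell. That call was lost without the WT LPS library (adjusted p = 0.0536) or the KO LPS library (adjusted p = 0.0539), with estimates of -1.35 and -1.84.

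Cd80, a B7 ligand of CD28 and CTLA-4, measured 14.4 FPKM naive, 54.7 with LPS and 40.4 tolerized in WT cells, against 15.1 naive, 25.0 with LPS and 37.1 tolerized in KO cells. Both naive libraries were lowest and had overlapping intervals, the tolerized libraries also overlapped each other, and the LPS libraries differed most between the genotypes. Cd80 rose with LPS by 1.28 ± 0.32 (log2, SE; limma, adjusted p = 0.0143) and was 1.34 ± 0.32 above naive in tolerized cells (limma, adjusted p = 0.0288). Tolerized and LPS cells differed by 0.06 ± 0.32 (limma, adjusted p = 0.89; interval -0.72 to 0.84), which turned to -0.53 after rescaling. The rise with LPS was no longer called with no minimum level (adjusted p = 0.145), without WT naive (adjusted p = 0.0833) or without WT LPS (adjusted p = 0.0657), and the tolerized call was lost without WT naive (adjusted p = 0.135) or KO tolerized (adjusted p = 0.101).

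Cd86, the other B7 ligand, measured 53.3 FPKM naive, 69.9 with LPS and 39.6 tolerized in WT cells, against 24.1 naive, 73.3 with LPS and 73.0 tolerized in KO cells. The KO naive library was lowest of the 6 and the WT naive library stood above WT tolerized, so the order of conditions was not the same in the 2 genotypes. None of the limma comparisons was called on the deposited scale: LPS against naive was 0.98 ± 0.45 (log2, SE; limma, adjusted p = 0.105), and tolerized against naive was 0.57 ± 0.45 (limma, adjusted p = 0.394). After rescaling, LPS against naive reached 1.81 (limma, adjusted p = 0.0214). Without the WT naive library it was 1.77 (limma, adjusted p = 0.0103), and without the KO naive library it was 0.19 (limma, adjusted p = 0.672). It also passed without the WT tolerized (adjusted p = 0.0293) or KO tolerized (adjusted p = 0.0284) library.

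Icosl, the ligand of ICOS, measured 15.7 FPKM naive, 48.9 with LPS and 27.5 tolerized in WT cells, against 13.3 naive, 16.4 with LPS and 20.8 tolerized in KO cells. The WT LPS library was highest, and the KO library had less than the WT library in each condition. LPS against naive was 0.93 ± 0.34 (log2, SE; limma, adjusted p = 0.0544), and it passed the threshold after rescaling, at 1.74 (limma, adjusted p = 0.00858). Leaving out WT LPS gave 0.33 (limma, adjusted p = 0.326) and leaving out WT naive gave 0.57 (limma, adjusted p = 0.278), while each of the other 4 omissions brought it past the threshold (limma, adjusted p from 0.011 to 0.0426). Tolerized against naive was 0.69 ± 0.34 (limma, adjusted p = 0.189).

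Cd274, which encodes PD-L1, measured 33.4 FPKM naive, 356 with LPS and 281 tolerized in WT cells, against 94.6 naive, 531 with LPS and 398 tolerized in KO cells. In each genotype LPS was highest and tolerized close below it, and every neighbouring pair of the 6 libraries was separated by more than the deposited intervals. Cd274 rose by 2.92 ± 0.33 with LPS (log2, SE; limma, adjusted p = 0.00101) and was 2.55 ± 0.33 above naive in tolerized cells (limma, adjusted p = 0.00565). Tolerized against LPS was -0.38 ± 0.33 (limma, adjusted p = 0.385; interval -1.18 to 0.42). Cd274 kept both calls when any 1 library was left out.

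Pdcd1lg2 encodes PD-L2 and starts 22.8 kb beyond the end of Cd274 on chromosome 19 (mm9, 29485409 to 29547417, against 29441928 to 29462584 for Cd274). It measured 1.97 FPKM naive, 1.88 with LPS and 3.80 tolerized in WT cells, against 1.57 naive, 1.89 with LPS and 3.45 tolerized in KO cells. The 4 naive and LPS libraries lay close together and under 2 FPKM, and both tolerized libraries lay above them. Pdcd1lg2 was tested only through the tolerized libraries, so the minimum itself favours a rise there. Pdcd1lg2 rose by 0.68 ± 0.18 in tolerized against LPS cells (log2, SE; limma, adjusted p = 0.0301) and by 0.74 ± 0.18 in tolerized against naive cells (limma, adjusted p = 0.0307), and LPS against naive was 0.07 ± 0.18 (limma, adjusted p = 0.768; 0.62 after rescaling, adjusted p = 0.0378). Relative to LPS the rise was 0.17 beyond the median gene and was not called after rescaling (0.25, limma, adjusted p = 0.362). It was also lost without any of the 4 libraries compared (limma, adjusted p from 0.12 to 0.166), and the tolerized against naive call was lost without any of the 6 libraries (limma, adjusted p from 0.0605 to 0.154).

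Slamf1, the self-binding receptor SLAM, measured 0.478 FPKM naive, 4.24 with LPS and 19.5 tolerized in WT cells, against 0.830 naive, 8.55 with LPS and 26.3 tolerized in KO cells. Levels stepped up from naive to LPS to tolerized in each genotype, and the conditions did not overlap. Slamf1 was tested only through libraries given LPS, so the minimum itself favours its rise over naive cells. Its range over the 6 libraries, 55.1-fold by FPKM from lowest to highest, was the widest ratio of the 8 genes. The lowest value, in WT naive cells, rests on about 25 fragments, with an interval half-width of 40%. Slamf1 rose by 2.10 ± 0.22 with LPS (log2, SE; limma, adjusted p = 0.00083), by a further 1.74 ± 0.22 from LPS to tolerized (limma, adjusted p = 0.00852; 1.21 after rescaling, adjusted p = 0.0294), and by 3.85 ± 0.22 from naive to tolerized (limma, adjusted p = 0.00196). All 3 calls were kept when any 1 library was left out.

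Havcr2, which encodes TIM-3, measured 1.47 FPKM naive, 0.124 with LPS and 0.194 tolerized in WT cells, against 0.772 naive, 0.0908 with LPS and 0.826 tolerized in KO cells. The widths of the intervals correspond to about 78, 6 and 12 fragments in WT and 34, 5 and 52 fragments in KO cells, so the LPS values rest on very few. Both LPS libraries were lowest, and KO tolerized stood near KO naive while WT tolerized stood near WT LPS. With no minimum level, LPS against naive was -0.92 ± 0.33 (log2, SE; limma, adjusted p = 0.201).

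In tolerized against LPS cells, 2 of the 7 rose (Slamf1 and Pdcd1lg2), where 36.1% of all tested genes rose. After rescaling, Slamf1 alone was called higher and Cd40 alone lower, against 8.49% and 9.04% of all genes. In tolerized against naive cells, 5 of the 7 rose (Cd40, Cd80, Cd274, Pdcd1lg2 and Slamf1) and 0 fell, where 7.31% of all genes rose and 19.3% fell. These 5 were also called after rescaling, where 9.14% of all genes rose. The minimum itself favours the rise of Pdcd1lg2 in both comparisons and that of Slamf1 over naive cells. The medians of the 7 genes were -0.24 and 1.34 in these comparisons. When no minimum level was applied, none of the 8 was called in either comparison (limma, 0 of 8). In the fit with the minimum, 3 and 5 of the 7 had an unadjusted p under 0.05, against 51.9% and 40.3% of all genes. The adjusted p-values without the minimum were 0.0864 for Slamf1 and 0.0908 for Cd40 in tolerized against LPS cells.

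The same comparisons within a genotype rest on 1 library a side and have no replicate check. They were made on log2(FPKM + 1) for genes with at least 2 FPKM in either library, which left out Havcr2 throughout and Pdcd1lg2 in LPS against naive cells. Of the 6 genes left, LPS cells were at least 2-fold above naive cells in 5 in WT (Cd40, Cd80, Cd274, Icosl and Slamf1) and in 4 in KO (Cd40, Cd86, Cd274 and Slamf1), where 8.21% and 7.02% of all genes did, and 0 were lower (39.8% and 42% of all genes). Tolerized cells were at least 2-fold above naive in 4 of 7 genes in WT (8.05% of all genes) and in 5 in KO cells (6.4%), the additional gene being Cd86, and 0 were lower (16.8% and 13.3%). Among the same 7 genes, Slamf1 alone in each genotype was at least 2-fold higher in tolerized than in LPS cells (20.8% of all genes in WT, 24% in KO), and Cd40 alone at least 2-fold lower (4.6% and 4.36%). Pdcd1lg2 in WT, 2.02-fold higher by FPKM, fell short of 2-fold on the log2(FPKM + 1) scale. Havcr2, under the minimum in every pair, was 11.9-fold lower by FPKM with LPS in WT and 8.50-fold lower in KO, 7.59-fold lower in tolerized than naive WT cells, and 9.10-fold higher in tolerized than LPS KO cells, each with intervals that did not overlap. The KO Slamf1 difference came to 0.92 (log2) after rescaling, short of 2-fold.

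**Figure D3:**
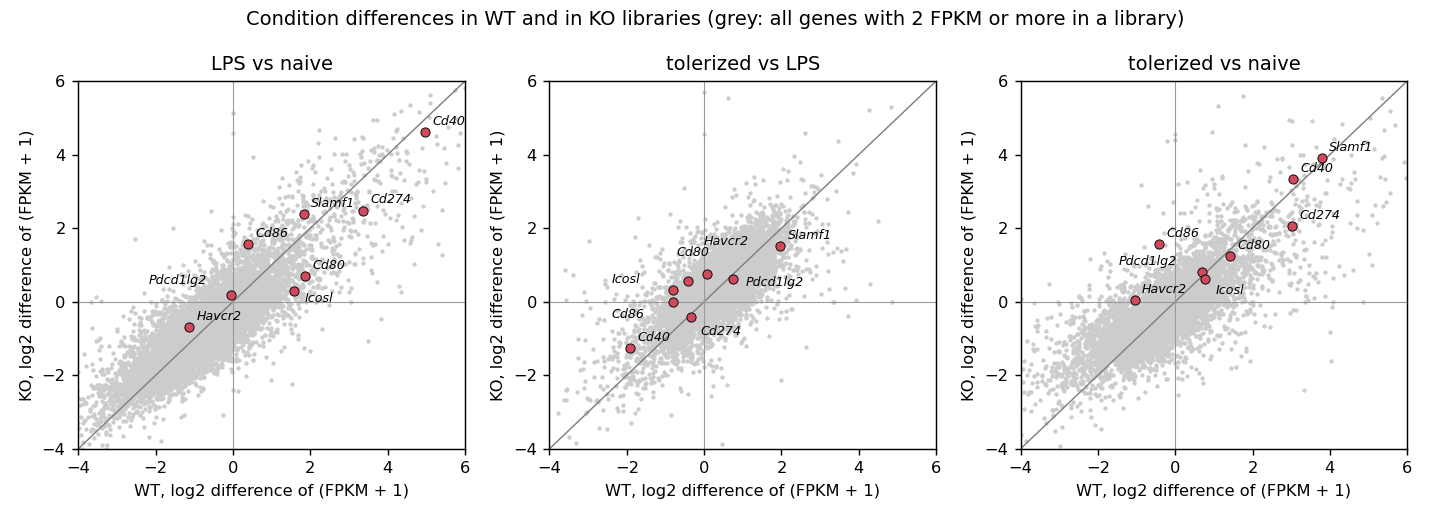
Condition differences (log2 of FPKM + 1) in WT (x axis) against KO libraries (y axis); red points are the 8 genes, grey points are the other genes that reached 2 FPKM, the diagonal marks equal differences, and genes beyond the plotted axes are not shown. In tolerized against naive cells Cd86 lies at -0.42 in WT and 1.56 in KO; in tolerized against LPS cells Cd80 and Icosl lie left of 0 in WT and above 0 in KO, and both KO values turn negative after rescaling.

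The study's question about the microRNAs is addressed by KO against WT cells. None of the 7 tested genes passed the threshold in either direction (limma, 0 of 7), and over all genes 0 rose (0%) and 1 fell (0.00984%). At an unadjusted p under 0.05 there were 3 of the 7, against 6.99% of all genes (710 of 10164). Cd274 was higher in KO in each condition, 2.83-fold in naive, 1.49-fold in LPS and 1.42-fold in tolerized cells, with an estimate of 0.85 ± 0.27 (log2, SE; limma, adjusted p = 0.567). Slamf1 was higher in KO in each condition at 0.53 ± 0.18 (limma, adjusted p = 0.608), although its naive intervals overlapped, and Icosl lower in each at -0.71 ± 0.28 (limma, adjusted p = 0.698). The remaining estimates were 0.07 for Cd40, -0.39 for Cd80, -0.10 for Pdcd1lg2 and -0.06 for Cd86, the last at the median gene (-0.06) and at 0.00 after rescaling.

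Library by library, Cd274 was at least 2-fold higher (3.98% of all genes) and Cd86 at least 2-fold lower (3.19%) in KO than in WT naive cells. In LPS cells, Cd80 (25.0 against 54.7 FPKM) and Icosl (16.4 against 48.9 FPKM) were at least 2-fold lower in KO (3.14%) and 0 of the 6 genes that reached the minimum were higher (4.26%). The Cd80 difference, -1.10 on the log2 scale, came to -0.99 after rescaling. Slamf1, 2.02-fold higher by FPKM in KO LPS than in WT LPS cells, was 0.87 on the log2(FPKM + 1) scale and 1.01 after rescaling. In tolerized cells 0 of the 7 that reached it differed by 2-fold in either direction (1.85% of all genes higher and 0.895% lower), while Havcr2, under the minimum, had 0.826 FPKM in KO against 0.194 in WT with intervals apart. The effect of tolerization on Cd86, relative to naive, was 1.98 (log2) larger in KO than in WT, where the median absolute gap over all genes was 0.33. With 1 library a group this gap was not tested.

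Ratios within a library do not depend on how the library was scaled. Cd86 exceeded Cd80 by 3.70-fold in WT naive and 1.28-fold in WT LPS cells, and the ratio was 0.981 in WT tolerized cells. In KO cells the ratio was 1.60, 2.93 and 1.97 in the same order. The balance of the B7 ligands thus moved toward Cd80 along the WT series and was highest after LPS in the KO series, and none of the counting intervals of WT and KO overlapped within a condition. PD-L1 transcript relative to Cd86 stood in WT at 0.627 naive, 5.09 with LPS and 7.09 tolerized, and in KO at 3.93, 7.25 and 5.46, so WT naive cells alone held less Cd274 than Cd86. Cd274 exceeded its neighbour Pdcd1lg2 by 17.0-, 189- and 73.9-fold in WT and 60.4-, 280.4- and 115-fold in KO cells, highest after LPS in both.

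**Figure D4:**
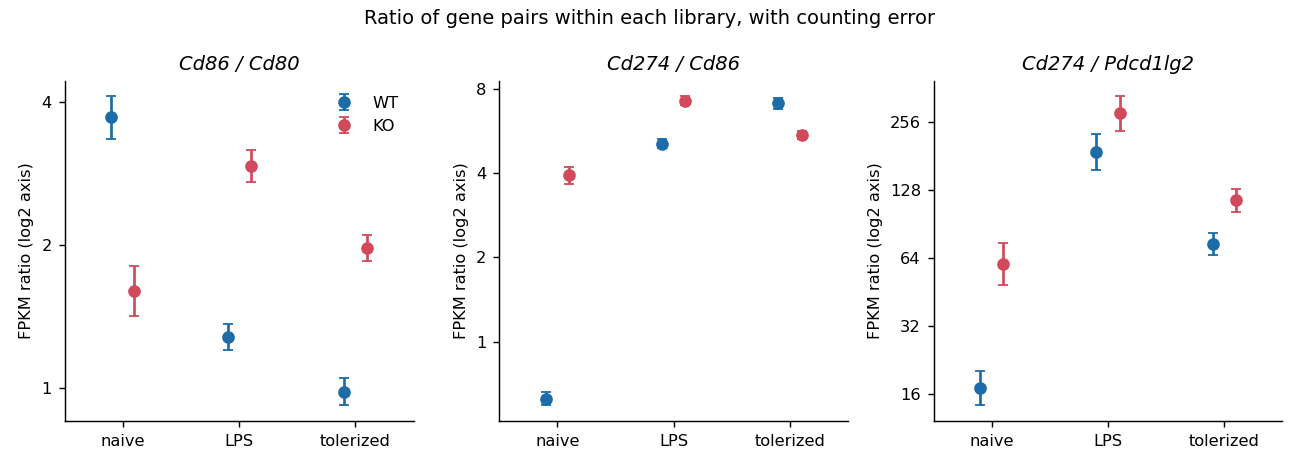
FPKM ratio of 3 gene pairs (y axes, log2 scale) in naive, LPS and tolerized cells (x axis); blue points are the WT and red points the KO library, and bars are intervals from counting error. Cd86 over Cd80 runs from 3.70 to 0.981 in WT, and Cd274 over Pdcd1lg2 is highest in the LPS libraries, at 189 and 280.4.

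Across the 6 libraries (log2 of FPKM + 1, Pearson's r, given as a description over points that share conditions), Cd40 and Cd274 had r = 0.92, Cd80 and Icosl 0.89, Pdcd1lg2 and Slamf1 0.83, and Cd40 and Havcr2 -0.83. Among 7326 tested genes that reached 10 FPKM, those most like Cd274 were Zbp1 (r = 0.998), Oas1g (r = 0.995) and Ube2l6 (r = 0.995), all known as interferon-induced genes. Zbp1, a sensor of Z-form nucleic acids, had 8.22, 294 and 239 FPKM in WT and 49.6, 478 and 333 FPKM in KO cells, so it too was higher in each KO library. The genes most like Cd40 were Irf9 (r = 0.9964), a subunit of the interferon-activated factor ISGF3, Plagl2 (r = 0.9955) and Ddx24 (r = 0.9945). Slamf1 was most like Zfp811 (r = 0.995), Pdcd1lg2 most like Nol8 (r = 0.998), Havcr2 most like Xdh (r = 0.990), Cd80 most like Aldh18a1 (r = 0.990), Icosl most like Syncrip (r = 0.976) and Cd86 most like Gm8369 (r = 0.956).

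Genes of the same pathways were taken from lists, whose counts stand beside all tested genes: with LPS 8.66% rose and 53.9% fell (22.4% and 24% after rescaling), from LPS to tolerized 36.1% and 4.27% (8.49% and 9.04%), and from naive to tolerized 7.31% and 19.3% (9.14% and 11%). Of 12 genes of CD40 signalling, all tested, 5 rose and 2 fell with LPS (limma; after rescaling 10 and 1). Traf1, a TRAF adaptor of TNF receptors, rose by 3.56, Tnfaip3, the feedback inhibitor A20, by 3.26, and Nfkb2, the precursor of the non-canonical NF-kappaB subunit p52, by 2.14 (log2), while Map3k14, the kinase NIK that triggers Nfkb2 processing, fell by 1.69 and was under the minimum in both LPS libraries. In tolerized cells Traf1 stood at 159 and 167 FPKM (WT and KO), against 123 and 159 after LPS. In tolerized against LPS cells 2 of the 12 rose, Map3k14 by 1.41 and Traf3 by 0.88, and 0 fell, and after rescaling 1 rose and 3 fell. In tolerized against naive cells 3 rose and 0 fell (6 and 0 after rescaling).

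Of 8 TNF superfamily costimulatory genes, 5 were tested, of which 3 rose with LPS and 0 fell (4 and 0 after rescaling). Cd70, among those that rose, reached the minimum only in WT LPS (3.06 FPKM) and KO tolerized cells (2.42 FPKM). The minimum itself therefore favoured its rise over naive cells. Tnfsf9, the ligand 4-1BBL, had 2.05, 170.2 and 13.3 FPKM in WT and 8.03, 111 and 20.1 FPKM in KO cells. It rose by 4.72 ± 0.48 with LPS (log2, SE; limma, adjusted p = 0.00082) and fell by 2.99 ± 0.48 from LPS to tolerized (limma, adjusted p = 0.0101), the same order of conditions as Cd40. Its receptor gene Tnfrsf9 (4-1BB) rose by 1.86 from LPS to tolerized, at 6.87 and 2.86 FPKM there, and reached the minimum for testing only in those 2 libraries. Tnfsf4, the ligand OX40L, rose by 1.16 with LPS (limma, adjusted p = 0.0486) and had 0.407, 3.35 and 5.69 FPKM in WT against 15.8, 26.3 and 21.7 FPKM in KO cells, the KO library above the WT library in each condition. In tolerized against LPS cells 2 of the 5 rose and 1 fell, and in tolerized against naive cells 4 rose, Cd70 and Tnfrsf9 among them.

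Of 11 other SLAM family genes, 8 were tested, of which 1 rose and 2 fell with LPS. Slamf7 (CRACC) rose by 1.92 with LPS and by 1.97 in tolerized against naive cells. Cd84 fell by 2.65 and 2.04 in these comparisons. Slamf6 fell by 1.20 with LPS, not called after rescaling, and rose by 1.71 from LPS to tolerized, where 1 of the 8 rose and 0 fell. Of 17 other inhibitory ligands and receptors measured, 14 were tested, of which 4 rose and 4 fell with LPS (9 and 4 after rescaling). In tolerized against naive cells 4 rose and 4 fell: Cd200r1, the receptor for CD200, fell by 2.89 while Cd200 rose by 2.06 and Pvr, a ligand of TIGIT, by 1.74. From LPS to tolerized 5 of the 14 rose and 1 fell, Timd4 (the phosphatidylserine receptor TIM-4) by 2.12, and after rescaling 1 rose and 3 fell. Of 7 other B7 family genes measured, 2 were tested. 4632428N05Rik, which encodes the inhibitory B7 protein VISTA, fell by 4.14 ± 0.30 with LPS (limma, adjusted p = 0.00051), from 110 and 58.0 FPKM in naive to 4.81 and 2.61 FPKM in LPS cells, and stood at 12.0 and 13.8 FPKM in tolerized cells. KO against WT called 0 genes of any of these lists (limma).

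**Figure D5:**
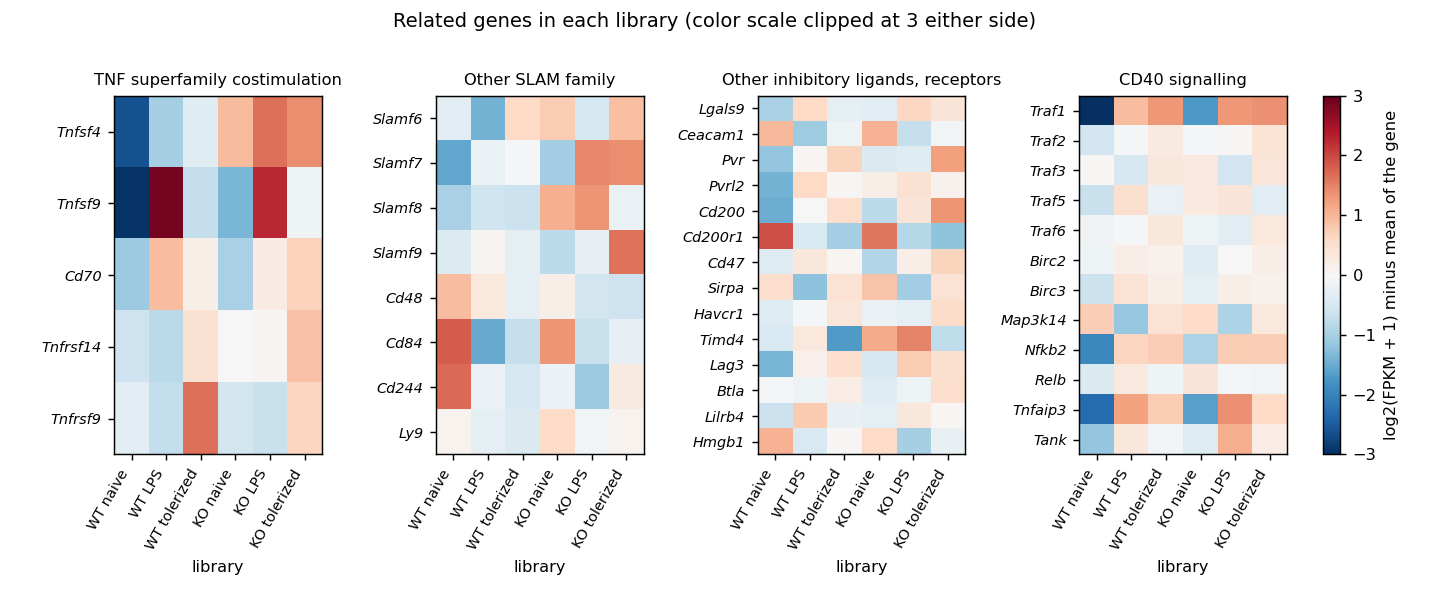
Tested genes of 4 related lists (y axes) in each of the 6 libraries (x axes); color is log2(FPKM + 1) minus the gene's mean over the libraries, clipped at 3 either side. Tnfsf9 is high in both LPS libraries, and Traf1, Tnfaip3 and Nfkb2 are low in both naive libraries.

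Macrophage markers were present in every library, with all 12 listed genes above 0. They summed to 47202 to 54378 FPKM in naive, 22921 to 26162 in LPS and 12748 to 18626 in tolerized cells. Lyz2 held most of each sum, at 45134.5, 19661 and 13872 FPKM in WT and 35949, 16240 and 8538 FPKM in KO cells. Emr1 went the other way from naive to tolerized cells, from 431 to 922 FPKM in WT and 393 to 842 in KO. Itgam, Fcgr1 and Cd14 were also higher in tolerized than naive cells of both genotypes. In that comparison 2 of the 12 rose and 6 fell (limma), where 7.31% and 19.3% of all genes did. B cells also carry CD40, CD80, CD86 and ICOSL, and their 13 markers, none at 0, summed to 803 to 1060.1 FPKM in naive, 376 to 456 in LPS and 659 to 803 in tolerized cells. Dendritic cell markers (11) summed to 110 to 165 FPKM over the 6 libraries, with Clec9a and Cd209a at 0 in KO LPS. Cd209a had 36.9 FPKM in WT naive against 0.0898 in KO naive cells. The members did not move together. With LPS 2 of the 7 tested rose, Irf4 by 1.85 and Ccr7 by 1.23 (limma), where 8.66% of all genes did. Batf3 fell by 1.73 and Clec10a by 0.81, the latter not called after rescaling, where 53.9% of all genes fell before rescaling. T and NK cell markers (12) summed to 42.4 to 50.3 FPKM in naive, 19.7 to 23.2 in LPS and 40.7 to 48.4 in tolerized cells. Gzma was at 0 in both naive libraries and Ncr1 at 0 in KO LPS. Cd2 was the highest of this list in naive cells, at 27.3 and 18.6 FPKM (WT and KO). The sums of 3 other marker lists were highest in the tolerized libraries of each genotype. Neutrophil and eosinophil markers (10) summed to 67.5, 111 and 201 FPKM in the WT series and 173, 149 and 349 in the KO series, with S100a9 and Ngp at 0 throughout. S100a8 held most of each sum, at 65.2, 105 and 191 FPKM in WT and 166, 143 and 341 FPKM in KO cells. Retnlg went the other way, from 1.32 FPKM in naive to 0.721 in tolerized WT cells and from 2.46 to 0.203 in KO cells. Mast cell markers (9) summed to 151, 219.6 and 287 FPKM and 136, 147 and 238 FPKM, and mesothelial and stromal markers (9) to 6.21, 4.27 and 15.7 FPKM and 7.51, 5.52 and 30.0 FPKM, in the same orders. The mast cell marker Hdc had 1.20, 49.0 and 76.8 FPKM in WT and 1.08, 33.3 and 36.3 FPKM in KO cells. Cpa3 was lower in tolerized (15.3 and 12.5 FPKM) than in naive cells (23.1 and 13.9 FPKM, WT and KO). Dcn held most of both tolerized stromal sums, at 10.3 and 28.1 FPKM. The part of these cells in the values of the 8 genes was not tested. In RNA of a mixed sample, fewer cells of a type and less RNA per cell cannot be told apart.

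The median half-width of the intervals was 5.04% to 5.98% of the value from 10 FPKM upward, narrowest in KO tolerized and widest in KO naive cells, so depth was not equal. The number of genes that reached 2 FPKM followed condition and is no measure of depth. It was 9998 and 9908 in naive, 8342 and 8283 in LPS and 9514 and 9499 in tolerized libraries (WT and KO). The top 50 genes held 35.6% to 47.3% of all FPKM, least in WT naive cells. Rescaling divided values by 1.31 and 1.29 in naive, 0.75 and 0.69 in LPS and 1.10 and 1.08 in tolerized libraries (WT and KO).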

How the data were processed

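RNA of peritoneal macrophages (6 libraries, 1 in each group) was poly-A selected and sequenced on a HiSeq2000, per the labels' protocols. The authors deposited 1 table per library that gives each gene's FPKM with an interval, per the file headers. Tools and build were bcl2fastq 1.8.4, TopHat, Cufflinks and mm9, per the submitters' processing notes. The design text speaks of triplicates, and whether they were pooled is not given in the sources used here, so p-values measure only the spread between these libraries.

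Rows not marked OK in every library (349) and 712 rows of 248 symbols listed at several loci were left out. Values were analysed as log2(FPKM + 1), a scale that understates the change of low genes. The 10164 genes that reached 2 FPKM in 2 or more libraries were fitted on genotype plus condition with limma 3.58.1 (R 4.3.3; two-sided, eBayes with a trend, Benjamini-Hochberg over all of them), with 2 residual and 4 prior degrees of freedom. Calls needed an adjusted p under 0.05. Library pairs were compared by size alone, at least 2-fold on the log2(FPKM + 1) scale with at least 2 FPKM in either library. Fragment numbers were estimated by reading an interval's half-width as 2 counting standard errors: 69.8% to 70.5% of values under 200 fragments came out whole within 0.01. Intervals cover counting error only.

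On simulated data made for LPS against naive cells with 10164 genes, with 200 of them changed, 45% of those changed by 1 (log2) and 99% of those changed by 2 were recovered. Of the unchanged genes, 16 were called. For tolerized against LPS, tolerized against naive and KO against WT, recovery at 1 was 39%, 43% and 82%, with 12, 12 and 31 unchanged genes called. In the data a far larger share was called with LPS (8.66% higher, 53.9% lower), so these rates need not hold there. The 8 genes, by name, and all lists were chosen with earlier results of these data known. Genes named from a list were the 4 with the largest called change in each comparison, and 3 genes most like each of the 8 were found by Pearson's r. Alternatives were the pseudocount, the minimum level, rescaling by median ratio, no trend, no genotype term, a 1.5-fold size and leaving out each library. Leaving out 657 small RNA genes was added after seeing the data.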

Additional observations from a re-analysis of the deposited data

Results flagged for a closer look

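In 3 cases the WT and KO libraries moved in opposite directions between the same conditions with the deposited intervals apart in both genotypes, and with 1 library a group the difference was not tested in any of them. Cd86 was lower in tolerized than in naive WT cells (-0.42, log2 of FPKM + 1) and higher in KO cells (1.56), and both kept their sign after rescaling (WT -0.17). The KO naive library held the lowest Cd86 value of the 6, at 24.1 FPKM.

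Cd80 was lower in tolerized than in LPS WT cells (-0.43) and higher in KO cells (0.55), and the KO value turned to -0.08 after rescaling. Icosl was lower in tolerized than in LPS WT cells (-0.81) and higher in KO cells (0.32), and the KO value turned to -0.30 after rescaling. Opposite signs were also seen, with overlapping intervals in at least 1 genotype, for Pdcd1lg2 in LPS against naive cells (-0.04 in WT and 0.17 in KO) and Havcr2 in tolerized against naive cells (-1.05 and 0.04). For Cd80 and Icosl the WT LPS library held the highest value of the 6, at 54.7 FPKM for Cd80 and 48.9 FPKM for Icosl.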

How the results depend on the processing

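No paired analysis was possible because each group held 1 library with no replicate number to share. The genotype term of the fit already compares conditions within WT and within KO, and dropping it moved no call. The deposited intervals cover counting error only, and depth limited Havcr2 most. Of the counts of called or 2-fold changed genes recomputed under an alternative, 150 were unchanged or within 1.5 times the value reported and 24 were not. Many of the 150 were counts of 0 that stayed at 0, such as genes called lower with LPS or called in KO against WT. They say little about how stable the other counts were. Where a cause is not named below, the cause was not tested. With no minimum level, LPS against naive called 3 genes higher, Cd80 being lost. With rescaled libraries, LPS against naive called 7 genes higher and tolerized against LPS called 1 higher. With no minimum level, where more genes are tested, tolerized against LPS called 0 higher and 0 lower and tolerized against naive called 0 higher. With a minimum of 10 FPKM, which leaves out Pdcd1lg2, tolerized against LPS called 1 higher.

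By size, with the share of all genes in parentheses, rescaling gave 3 genes at least 2-fold lower in tolerized than LPS WT cells (10.5%), 0 higher (7.65%) and 2 lower (10.7%) in tolerized than LPS KO cells, and 1 higher (5.71%) and 1 lower (2.7%) in KO than WT LPS cells. At 1.5-fold, 2 were higher (42.6%) and 3 lower (8.77%) in tolerized than LPS WT cells, 2 higher in tolerized than LPS KO cells (48.2%), 1 higher in KO than WT LPS cells (10.9%) and 1 higher in KO than WT tolerized cells (5.35%).

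Leaving out each library in turn gave 3 to 6 genes higher and 0 lower for LPS against naive, 1 to 2 higher and 0 to 1 lower for tolerized against LPS, 3 to 4 higher for tolerized against naive, and 0 for KO against WT. Estimates that changed sign, none of them called, are given with their range over the omissions. Pdcd1lg2 with LPS ran from -0.017 (without KO LPS; -0.013 without KO naive) to 0.15. In tolerized against LPS, Cd80 ran from -0.47 (without KO LPS; -0.14 without KO tolerized) to 0.60 and was -0.53 rescaled, Cd86 from -1.10 to 0.29 (without WT tolerized), and Icosl from -0.85 to 0.37 (without WT LPS). In tolerized against naive, Cd86 ran from -0.22 (without KO naive; -0.12 without KO tolerized) to 1.36. In KO against WT, Cd40 ran from -0.089 (without either tolerized library) to 0.23, and Cd86 from -0.52 to 0.47 (without either naive library) and was 0.00019 rescaled.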

Other observations

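The receptors on the T cell side of these ligands had at most 2.56 FPKM in every library. Ctla4 had 0.584 to 2.31 FPKM, Pdcd1, the gene of PD-1, had 0.496 to 1.63 FPKM, and Cd28 had 2.56 FPKM in WT naive cells and 0.256 to 0.820 in the other 5 libraries. Icos ranged from 0.450 to 0.879 FPKM and Cd40lg from 0.0440 to 0.347 FPKM. Ctla4 was the only one of the 7 T cell partner genes tested. It reached 2 FPKM only in WT naive and WT tolerized cells, so the minimum itself favours a lower value with LPS. Its limma differences, -0.68 with LPS and 0.75 from LPS to tolerized, were called, and neither was after rescaling.

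Several genes of the related lists had WT and KO libraries of a condition far apart, Tnfsf4 among them. A further 3 are given as examples chosen after their values were seen, and no difference within a condition was tested. Vsig4, an inhibitory B7-related receptor of resident macrophages, had 158 FPKM in WT naive and 1.87 in KO naive cells, 45.2 and 0.337 after LPS, and 0.998 and 0.131 in tolerized cells. Slamf8 had 21.7 and 92.4 FPKM in naive, 28.6 and 110.2 in LPS, and 27.5 and 37.8 in tolerized WT and KO cells. Slamf9 had 14.3 FPKM in WT tolerized and 56.2 in KO tolerized cells, against 9.68 to 18.6 FPKM in the 4 naive and LPS libraries.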
